A study of Capra hircus with 2 samples.

Results

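The miRNAs described here are miR-10a, miR-10b, miR-196a and miR-196b, whose genes lie inside the HOX clusters. They were taken from the table of known miRNAs by name, as every name that holds one of these in full, whatever its species prefix, arm or end annotation. This gave 6 of the 587 distinct known names, 2 for miR-10a, 2 for miR-10b and 2 for miR-196b. No name of miR-196a was found, and it is not analysed here. The tissue was endometrium of Xinong Saanen dairy goats aged 24 months, taken at gestation day 5 for the pre-receptive group (P, 10 goats) and at gestation day 15 for the receptive group (R, 10 goats). Within each group the RNA of lowest quality was left out, and RNA of the remaining goats was mixed into several pools that were sequenced more than once. The tables give a single value per name and group over all pools and runs, so there were 2 libraries and no replicates. The question was how these miRNAs differ between the receptive and the pre-receptive endometrium.

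HOX genes encode transcription factors that set position along the body axis, and HOXA10 is known for its part in making the uterus receptive to the embryo. The genes of miR-10a, miR-10b, miR-196a and miR-196b lie between HOX genes, and transcripts of HOX genes are among the known targets of miR-196a and miR-196b. In the goat RefSeq annotation (assembly ARS1.2, used for names only), MIR10A lay between HOXB5 and HOXB3, MIR10B between HOXD8 and HOXD3, MIR196B between HOXA9 and HOXA10, and MIR196A between HOXB13 and HOXB9, counting named HOX genes alone. Each miRNA hairpin can give a mature strand from its 5p arm and another from its 3p arm. A mature miRNA finds its targets mainly through its seed, here bases 2 to 8 from the 5′ end.

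The listed sequences are shown first, because they decide which of the values can tell the paralogs apart. Capitals mark the seed, and each listed sequence stands before the reference sequence to which it was assigned where the pair differed at the 5′ end or by a base.
miR-10a 5p, listed: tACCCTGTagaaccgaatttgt
miR-10a, sheep reference: tACCCTGTagatccgaatttg
miR-10b 5p, listed: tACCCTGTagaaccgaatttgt
miR-10b, sheep reference: aCCCTGTAgaaccgaatttgtg
miR-10a 3p, listed: cAAATTCGtatctaggggaat
miR-10b 3p, listed: cAGATTCGattctaggggaat
miR-10b 3p, human reference: aCAGATTCgattctaggggaat
miR-196b 5p, listed: tAGGTAGTttcctgttgttggga
miR-196b 3p, listed: tCGACAGCacgacactgccttca

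The 5p names of miR-10a and miR-10b carried the same listed sequence of 22 nt, with 0 differences. Against the sheep miR-10a reference this sequence had the substitution T12A, counted from the 5′ end of the reference, and 1 more base at its 3′ end. Against the sheep miR-10b reference it had no substitution, 1 more base at its 5′ end and 1 fewer at its 3′ end. The added 5′ base moved the seed from CCCTGTA in that reference to ACCCTGT, which is also the seed of the miR-10a reference. The 6 names thus held 5 distinct sequences, and the 5p values of the miR-10a and miR-10b names cannot be told apart by sequence. At the position of T12A, where the sheep references differ, the listed sequence has the base of the miR-10b reference. The value under the miR-10a 5p name thus rests on no base particular to the miR-10a reference. From which hairpin its reads came was not tested. The 3p names differed at 3 of 21 bases, A3G, T9A and A10T from miR-10a to miR-10b, counted from the 5′ end of the listed sequences. The first of these lies in the seed, so the 3p strands can be told apart. The 5p sequence of miR-196b was that of the dog reference, and its 3p sequence had 1 base more at the 3′ end than the human reference.

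No other known name and no predicted candidate shared a seed with any of the members, and none of equal length lay within 1 mismatch of them. The seed of miR-196b 5p, AGGTAGT, stood 1 base further from the 5′ end in 10 other known names, among them oar-let-7a. The relatives miR-99a, miR-99b and miR-100 had the seed ACCCGTA.
miR-100 5p, listed: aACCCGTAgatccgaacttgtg

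The authors gave each name a normalized expression (NE) per library. On this scale, as found from the values, 1 read was worth 0.8599 NE in R and 1.163 NE in P. Reads were recovered by dividing by that worth, and 79.1% of the known names in R and 83.1% in P came out within 0.01 of a whole read. The known names held 1880606 reads in R and 4032588 in P. With the predicted candidates added, listed reads made up 44.6% of what the authors' filtering left as clean reads for the R library. For the P library this share was 74.9%. The libraries thus differed in composition and not in depth alone, so scaling to clean reads and scaling to listed reads give different ratios. The cause of this difference was not tested. Each ratio below has a 95% exact (Clopper-Pearson) interval, which covers counting error only, because the PCR reads carried no molecular identifiers and cannot be counted as separate molecules. All tests compare 2 libraries and not the phases, since no value shows how goats or pools of 1 phase vary.

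The 5p strands of miR-10 were among the most abundant miRNAs of the goat endometrium and were lower in the R library. miR-10b 5p had 160642 NE in R and 718168 NE in P, and miR-10a 5p had 153959 NE in R and 657181 NE in P. They ranked 2 and 3 by NE in both libraries. The NE of miR-10b 5p was 4.47-fold lower in R, and its log2 ratio of R to P was -2.16 (95% exact interval -2.17 to -2.15). For miR-10a 5p the log2 ratio was -2.09 (-2.10 to -2.09). Since both names carry 1 sequence, these are not independent measurements. The share of the reads of known names fell less than NE, as the R library had fewer listed reads and each of its reads was worth less NE. For miR-10b 5p it was 9.93% of the R library's reads (95% exact interval 9.89% to 9.98%), against 15.3% of those of P (15.3% to 15.3%), and for miR-10a 5p 9.52% against 14.0%.

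miR-196b 5p was far less abundant, with 2886 NE in R and 5980 NE in P, or rank 45 in R and rank 36 in P. Its NE was 2.07-fold lower in R, a log2 ratio of -1.05 (95% exact interval -1.11 to -0.99), so that the interval left out 0 but reached across the 2-fold limit. This direction depended on the scaling, since with reads scaled to all listed reads the log2 ratio of miR-196b 5p was 0.48. It made up 0.178% of the known reads of R (95% exact interval 0.172% to 0.185%) and 0.128% of those of P (0.124% to 0.131%).

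The 3p strands were rare in both libraries. miR-10a 3p had 173 NE in R and 100.01 NE in P, from 201 and 86 reads. Its log2 ratio was 0.79 (95% exact interval 0.42 to 1.17), higher in R but short of 2-fold. miR-10b 3p had 113 NE in R and 124 NE in P, from 131 and 107 reads, and its log2 ratio of -0.14 had an exact interval from -0.52 to 0.24 that included 0. miR-196b 3p had 36.1 NE in R and 44.2 NE in P, from 42 and 38 reads, and its log2 ratio was -0.29 (95% exact interval -0.96 to 0.38). At this depth no difference was detectable for the 3p strands of miR-10b and miR-196b on the NE scale. Scaled to the clean reads, miR-10b 3p was higher in R, with a log2 ratio of 0.64 and an exact interval from 0.26 to 1.02 that left out 0. On that scale miR-196b 3p had a log2 ratio of 0.49, and its interval of -0.176 to 1.164 included 0.

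**Figure D1:**
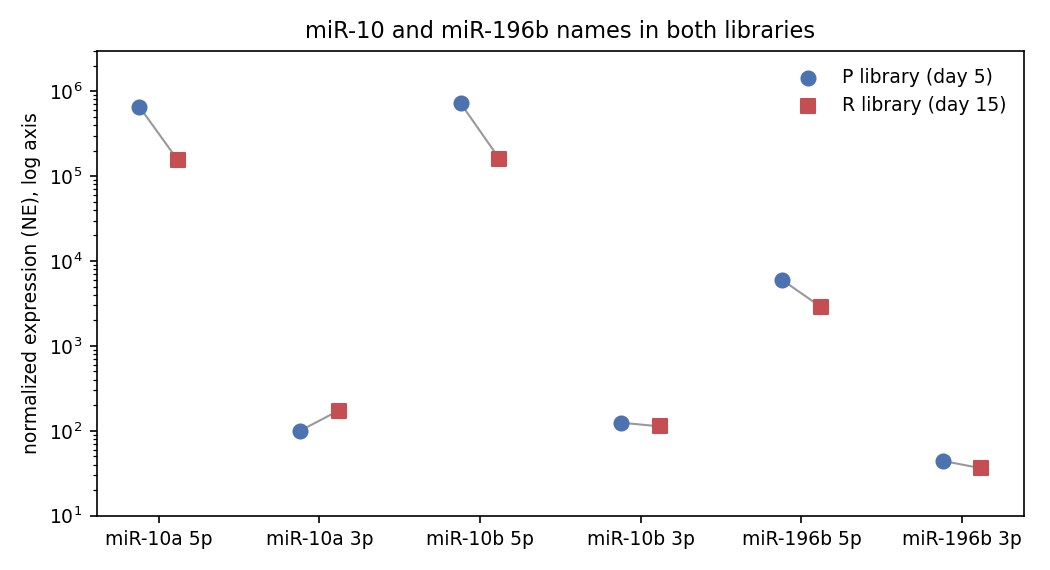
NE of the 6 names (log axis) in the P library (circles) and the R library (squares), 1 value per library, with a line joining the values of each name. The 5p names of miR-10 lie at 657181 and 718168 NE in P and at 153959 and 160642 NE in R, while the 3p names all lie between 36.1 and 173 NE.

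To set these ratios beside the rest of the libraries, the 472 names with NE above 0 in both libraries and at least 1 NE in one of them were tested, 438 known names and 34 predicted candidates. Of the 6 members, 3 were more than 2-fold lower in R with an exact interval that left out 0 (miR-10a 5p, miR-10b 5p and miR-196b 5p, which hold 2 distinct sequences), and 0 were more than 2-fold higher. These counts hold on the NE scale, and by the same rule 2 members were lower and 1 higher when the clean reads were the total, and 0 lower and 3 higher when the listed reads were. By fold alone, 6.36% of all tested names were then more than 2-fold lower and 47.0% more than 2-fold higher with the clean reads. With the listed reads these shares were 2.75% and 74.2%. On the higher side the share of members was below that of all names under both. On the lower side it was above that of all names with the clean reads and below it with the listed reads. Among all tested names 72 (15.3%) were more than 2-fold lower in R, and 48 (10.2%) were so with an interval that left out 0. More than 2-fold higher in R were 122 names (25.8%). The candidates came from a table in which the authors had already selected names, and among the known names alone 16.4% were more than 2-fold lower and 22.8% more than 2-fold higher. All tested names had a median log2 ratio of 0.12, and the known names among them 0.03. Relative to the former, miR-10b 5p stood at -2.28, miR-10a 5p at -2.22 and miR-196b 5p at -1.17.

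The order of the ratios does not depend on the scaling. Of the 438 known names tested, 17 had a lower ratio of R to P than miR-10b 5p and 19 a lower ratio than miR-10a 5p. For miR-196b 5p this number was 67. Of the 3p names, miR-196b 3p and miR-10b 3p stood below the middle, with 177 and 195 names of lower ratio, and miR-10a 3p above it, with 318. Among the 59 known names with at least 1000 NE in both libraries, 3 had a lower ratio than miR-10b 5p.

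**Figure D2:**
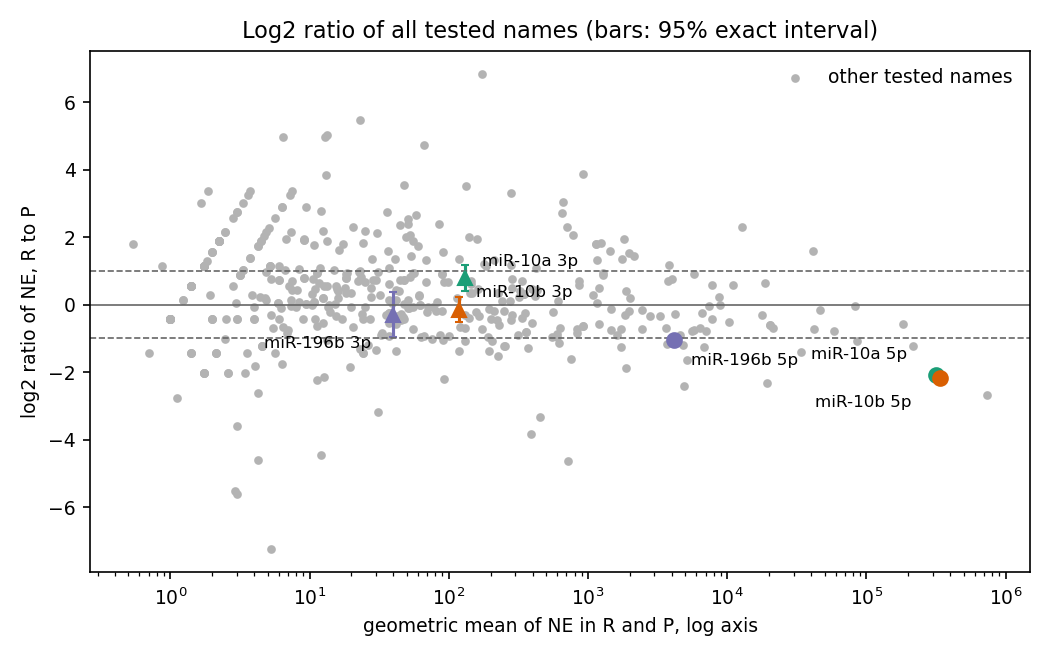
Log2 ratio of NE (R to P) against the geometric mean of NE in both libraries (log axis) for the 472 tested names, with the members in color (circles 5p, triangles 3p, bars the 95% exact interval) and dashed lines at 2-fold. The miR-10 5p names lie at -2.09 and -2.16 at the far right, miR-196b 5p at -1.05, and the 3p names between -0.29 and 0.79 before any other scaling.

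How much lower the 5p strands were depended on how the libraries were scaled. Scaling reads to the clean reads of each library adds 0.78 to every log2 ratio, and scaling to the listed reads adds 1.53. miR-10b 5p was lower in R under every scaling tried, with log2 ratios between -2.28 and -0.63, and miR-10a 5p likewise between -2.22 and -0.56. Only with the listed reads as the total were they within 2-fold. miR-10a 3p was higher in R under every scaling tried, from 0.67 to 2.32, with the counting interval above 0 in each. An assumed spread, described for the 3p strands, was put on the value of each library as if it came from a single pool. With it the interval of miR-10a 3p would run from -0.79 to 2.37 on the NE scale and include 0. With the listed reads as the total it would run from 0.74 to 3.90. The interval of miR-10b 5p with that spread would leave out 0 on the NE scale (-3.70 to -0.62). It would include 0 with the clean reads (-2.92 to 0.16) or the listed reads (-2.17 to 0.91) as the total. The same held for miR-10a 5p. The sign of the log2 ratio of miR-196b 5p, miR-10b 3p and miR-196b 3p changed between scalings. With reads scaled to the clean reads, 30 tested names were more than 2-fold lower and 222 more than 2-fold higher in R.

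**Figure D3:**
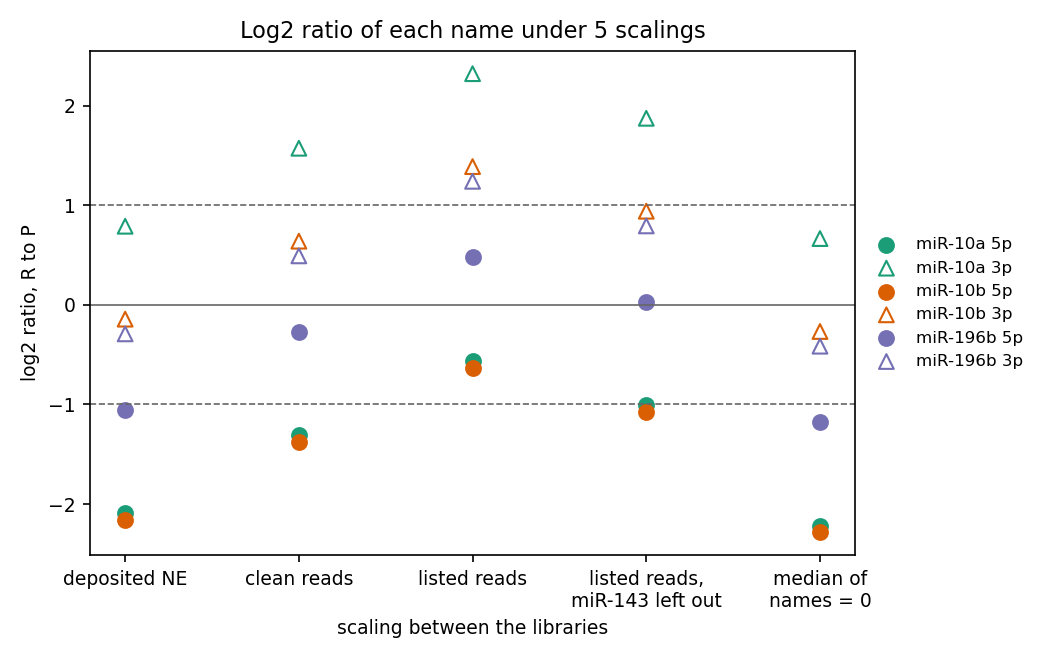
Log2 ratio of R to P for each of the 6 names (filled circles 5p, open triangles 3p) with the deposited NE and under the other scalings between the libraries, with dashed lines at 2-fold. The miR-10 5p names lie below 0 in every column (-2.28 to -0.56) and miR-10a 3p above 0 (0.67 to 2.32), while miR-196b 5p, miR-10b 3p and miR-196b 3p lie on both sides of 0.

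Ratios of names within a library need no scaling. The ratio of miR-10a to miR-10b was 0.958 in R and 0.915 in P for the 5p names, which share a sequence, so no test was made between them. Among the known names, 28 pairs shared a listed sequence and had NE above 0 in both libraries. Of these pairs 19 had equal values in both libraries, and 25, the miR-10 pair among them, lay within 10% of each other in both. Recovered reads of these names were not always whole, with 179046.5 for miR-10a 5p and 186818.5 for miR-10b 5p in R. Whether reads were divided between the names was not tested.

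The 3p strands, which differ in sequence, gave another picture. In the R library miR-10a 3p exceeded miR-10b 3p, with a ratio of 1.53 (95% exact interval 1.23 to 1.93), and miR-10a made up 60.5% of the reads of both 3p strands. In the P library the ratio was 0.804 (0.598 to 1.08), with 44.6% from miR-10a. The odds ratio between the libraries was 1.91 (95% exact interval 1.31 to 2.78), and its log2 was 0.93 (p = 0.000535, Fisher's exact test, two-sided). This test compares 201 and 131 reads of R with 86 and 107 reads of P, and not the phases. A coefficient of variation of 0.4 was then assumed for the value of each arm in each library. With it the interval of the log2 odds ratio would run from -1.31 to 3.17 and include 0. This takes each library as a single pool. As each value covers several pools, the same spread between pools would give narrower intervals.

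**Figure D4:**
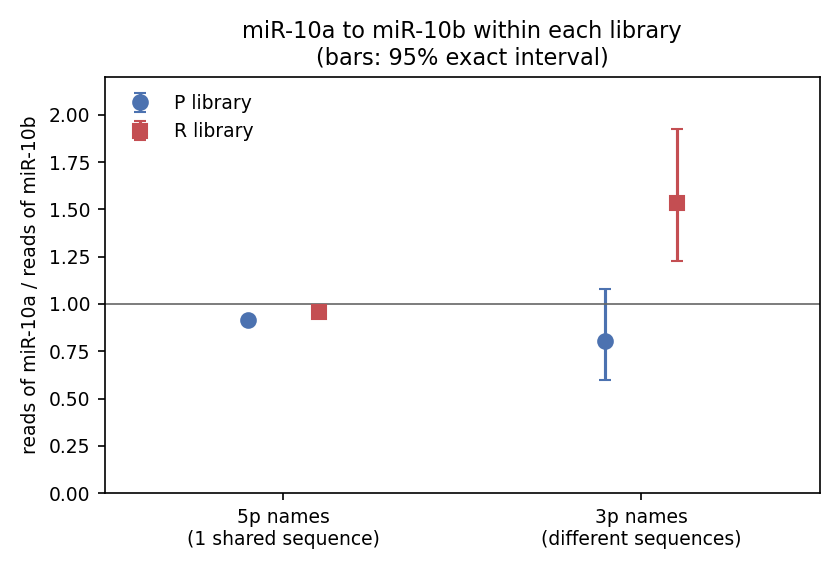
Ratio of the reads of miR-10a to those of miR-10b within the P library (circles) and the R library (squares), for the 5p names with 1 shared sequence and for the 3p names with different sequences (bars, 95% exact interval). The 5p ratios are 0.915 and 0.958, whereas the 3p ratio is 0.804 in P and 1.53 in R.

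miR-196b 5p also moved against miR-10b 5p. Its reads were 0.0180 of those of miR-10b 5p in R (95% exact interval 0.0174 to 0.0186), against 0.00833 in the P library (0.00810 to 0.00856), a ratio 2.16-fold higher in R. The ratio of R to P was thus lower for miR-10b 5p than for miR-196b 5p whatever the scaling.

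The balance of the arms differed between the libraries. For each read of miR-10a 3p there were 891 reads of the miR-10a 5p name in R (95% exact interval 776 to 1028), against 6571 in the P library (5321 to 8215). That 5p name has the base of the miR-10b reference at T12A, so this ratio may not be that of the miR-10a hairpin. For miR-10b the ratio of 5p to 3p was 1426 in R (1202 to 1706) and 5771 in P (4776 to 7043). For miR-196b it was 79.9 in R (59.0 to 111) and 135 in P (98.4 to 191). These intervals overlapped, but overlap does not compare the ratios, and the change was not tested. The 5p arm stayed far more abundant than the 3p arm in both libraries. On the log2 scale the 5p to 3p ratio of R minus that of P was -2.88 for miR-10a, -2.02 for miR-10b and -0.76 for miR-196b. As the 5p sequence is shared, the ratio was also taken over both miR-10 names together, a choice made after the values were seen. It was 1102 in R (990 to 1231) and 6128 in P (5322 to 7093).

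These changes were set beside those of 63 hairpins, taken as pairs of 5p and 3p names of the same number that stood next to each other in the known table, with at least 10 reads for each name in both libraries. Some pairs share a name or a sequence, so the 63 are not all separate hairpins. The median change was -0.35 (quartiles -0.84 and 0.47), and the ratio was lower in R for 38 hairpins (60.3%). The pair of miR-10a names had the lowest value of the 63. Its 5p sequence has the base of the miR-10b reference at T12A, so this rank may not be that of the miR-10a hairpin. A lower change than that of miR-10b was found for 4 hairpins, miR-10a among them, and a lower change than that of miR-196b for 17. This is a description of these libraries, without a test.

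**Figure D5:**
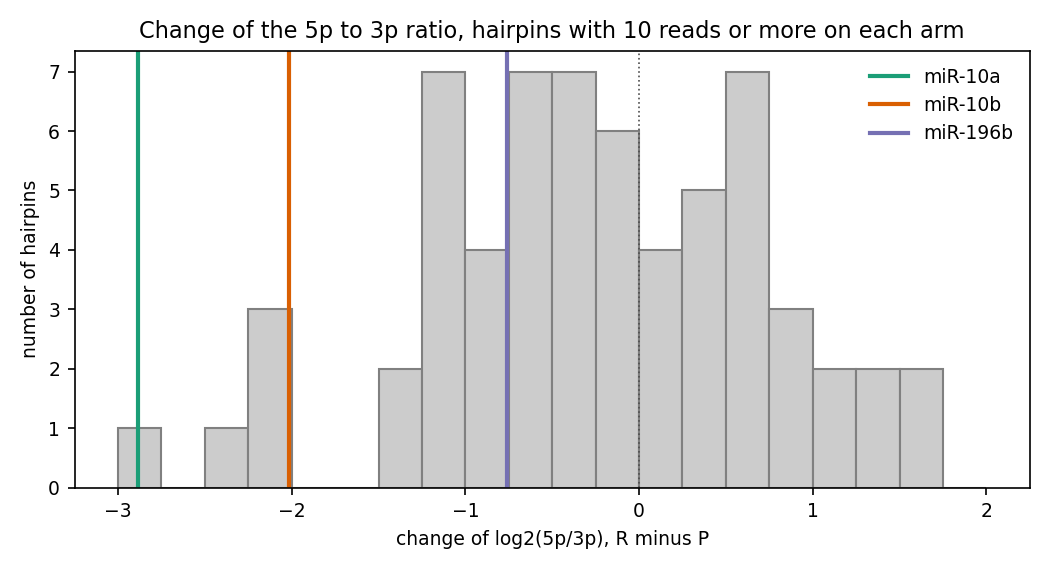
Number of hairpins by the change of their log2 5p to 3p ratio (R minus P), for 63 hairpins with at least 10 reads on each arm in both libraries, with colored lines at the members. miR-10a (-2.88) and miR-10b (-2.02) lie at the left end and miR-196b (-0.76) close to the lower quartile of -0.84. The miR-10a and miR-10b names share their 5p sequence.

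The relatives of miR-10 outside the HOX clusters were less abundant than the miR-10 5p names and had log2 ratios nearer to 0 on the NE scale, but their direction depended on the scaling. oar-miR-99a_R+2 had 3851 NE in R and 4666 NE in P, a log2 ratio of -0.28 (95% exact interval -0.34 to -0.22). hsa-miR-99b-5p_R-1 had 2471 NE in R and 3145 NE in P (log2 ratio -0.35). hsa-miR-100-5p had 416 NE in R and 915 NE in P, with a log2 ratio of -1.14 (-1.30 to -0.97). When reads were scaled to the clean reads, the log2 ratio was 0.51 for miR-99a 5p and 0.44 for miR-99b 5p, above 0, and -0.35 for miR-100, which turned to 0.39 with the listed reads as the total. The 3p names mmu-miR-99a-3p_R+2_1ss9TC and hsa-miR-99b-3p_R+1 had log2 ratios of -0.56 and -0.19 on the NE scale and 0.22 and 0.60 when scaled to the clean reads, and on the NE scale the interval of the latter included 0 (-0.65 to 0.28). miR-615, another miRNA of the HOX clusters, was listed as cgr-miR-615-3p_R-1 with 2.15 NE in R and 2.91 NE in P, from 2.5 reads in each library, too few to give a direction.

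Of the known names other than the members with at least 1000 NE in both libraries, the 5 nearest to miR-10b 5p in log2 ratio were cgr-miR-101b-3p_1ss22GT (-2.33), cfa-miR-145 (-2.42), bta-miR-320a (-1.65), aja-miR-143_1ss22GT (-2.69) and oar-miR-181a (-1.41). The 5 nearest to miR-196b 5p were oar-miR-26b_R+1 (-1.07), hsa-miR-192-5p (-1.17), mdo-miR-181b-5p (-1.19), mmu-miR-148a-3p_R+1 (-0.91) and oar-miR-26a (-1.21). With 1 ratio per name, this likeness rests on 2 libraries. Of these 10 names, oar-miR-26b_R+1 had an interval (-1.08 to -1.05) inside that of miR-196b 5p, whereas no interval of the first 5 included the -2.16 of miR-10b 5p.

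Lists of miRNAs known from given cell types were compared between the libraries too. Of the 9 muscle names searched, which include older and newer names of the same miRNA, 6 were found, with 10 names tested, all 10 lower in R on the NE scale and 9 of them more than 2-fold, whereas with the listed reads as the total 7 were lower and 3 higher. They summed to 292640 NE in R and 1883319 NE in P, most of it aja-miR-143_1ss22GT with 289634 NE in R and 1866274 NE in P. Without that name the sums were 3005 and 17045 NE. miR-499 was present under its newer name miR-499a, and miR-133b and miR-206 were not analysed here. Of the 13 epithelial names searched, 11 were found, and 13 of the 14 names tested were more than 2-fold higher in R, with all 14 higher under every scaling tried. Their sum was 38636 NE in R and 6997 NE in P, led by hsa-miR-141-3p_R-1 with 28337 and 5791 NE, and miR-203a was present under its older name miR-203, while miR-200b was not analysed here.

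On the NE scale the other lists differed less, whereas with the listed reads as the total most of their names were more than 2-fold higher in R, as were 74.2% of all tested names (47.0% with the clean reads). All 3 stromal fibroblast miRNAs were found, with 7 names, 0 of them beyond 2-fold on the NE scale (all 7 were more than 2-fold higher in R with the listed reads as the total), and sums of 97321 NE in R and 97155.5 NE in P, led by oar-miR-199a-3p (82015 and 84822 NE). The 4 names of the endothelial miR-126 summed to 32840.5 NE in R and 21287 NE in P, led by hsa-miR-126-5p (23369 and 14955.5 NE). None of the 4 was beyond 2-fold on the NE scale, while 3 were more than 2-fold higher in R when scaled to the clean reads and all 4 when scaled to the listed reads. Of the 10 blood and immune names searched 7 were found, with miR-451a present under its older name miR-451, and miR-150 and miR-146b were not analysed here. Of their 10 names tested, 2 were more than 2-fold higher in R on the NE scale and 6 when scaled to the clean reads, with sums of 13918 and 14642 NE. The most abundant over both libraries was cgr-miR-486-5p (5052 and 8073 NE), while cgr-miR-142-5p_L-2R+1, named after its values were seen, was higher than it in R (5689 NE in R and 2524 NE in P). In pooled tissue, fewer cells of a type and less RNA per cell cannot be told apart. The part of these differences in the ratios of miR-10 and miR-196b was not tested.

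The table of predicted targets, made by the authors with TargetScan and miRanda for the miRNAs they called, lists 87779 pairs of a miRNA and a target, with 7608 target identifiers. It holds 3 of the 6 members, the 5p names, and targets of the 3p names were not analysed here. miR-10a 5p and miR-10b 5p had 697 targets each and shared all 697, as they share a sequence. miR-196b 5p had 420 targets. The median list held 578.5 targets and the longest 1331, so that the miR-10 names ranked 52 and miR-196b ranked 102 by the length of their lists. The lists of miR-10 and miR-196b had 70 targets in common, 10.0% of the miR-10 list and 16.7% of the miR-196b list. For comparison, a choice made after the values were seen, the other 139 names of the table had a median of 14.9% of their lists in common with miR-10 and 9.62% with miR-196b. The part of its list that miR-196b shared with miR-10 lay above the upper quartile of the other names (quartiles 14.1% and 16.0%). Of those names 17 shared a larger part with miR-10. The part that miR-10 shared with miR-196b lay between the quartiles (8.55% and 10.6%), and 52 names shared a larger part with miR-196b. There were 3 targets of miR-10 and 4 of miR-196b that were listed for no name outside the members. None of the identifiers matched an entry of the RefSeq table (0 of 7608), so whether HOX genes are among them was not analysed here.

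In the conservation table, which gives for 23 species the precursors that share an identified miRNA, mir-10a stood under 15 species, mir-10b under 16 and mir-196b under 10. Precursors of miR-196a stood under 8 species, although no name of miR-196a was found among the known names. These entries carry no value per library.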

How the data were processed

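Small RNA of 1 library of pooled RNA per phase was analysed. The authors filtered the reads, matched them by BLAST to miRBase precursors and the genome (build not given in the sources used here), and deposited for each name a normalized signal (NE) per library. The stated formula, which divides by the clean reads, does not give the observed worth of 1 read, so how the authors set each library's factor is not known. Fold, log2 and P-value columns of the authors' own comparison were not used. In the candidate table, 2 columns of library values were not used, because their headings went against those of the differential expression table. Candidate values were read from the latter, which lists 70 candidates. Candidates it leaves out were not tested or added to the listed reads, and 325 of 447 known names detected in both libraries are in it.

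Repeated names (54) were counted once. Reads were NE divided by the worth of 1 read, the most frequent value above 0 in each library. A difference was called beyond 2-fold with a 95% exact interval that left out 0. The conditional odds ratio of the 3p strands was tested by Fisher's exact test. Arms were paired from neighbouring entries of the same number. Alternatives were other scalings (clean read totals from the study, listed reads with and without the most abundant name, median 0), filters, a pseudocount of 1 NE, an assumed coefficient of variation of 0.4, and Fisher's exact test against the remaining clean reads with Benjamini-Hochberg adjustment. Named miRNAs were the members, miR-615, miR-99a, miR-99b and miR-100, the 5 abundant names nearest in ratio to miR-10b and to miR-196b, and the most abundant name of each marker list. oar-let-7a was chosen after its sequence was seen. Members and lists were chosen with earlier results of these data known. The calls were tested on simulated data that held counting error alone, without spread between pools or error in the scaling. Python 3.11.15, numpy 2.4.6, scipy 1.17.1 and matplotlib 3.10.9 were used.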

Additional observations from a re-analysis of the deposited data

How the results depend on the processing

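The scaling between the libraries moved most results. In the order clean reads, listed reads, and listed reads without the most abundant name, the log2 ratio turned positive, at 0.64, 1.39 and 0.94 for miR-10b 3p and 0.49, 1.24 and 0.79 for miR-196b 3p, the 0.49 with an interval that included 0. For miR-196b 5p it was -0.27, no longer beyond 2-fold, then 0.48, higher in R, and 0.033, with an interval of -0.031 to 0.096 that included 0. miR-10a 3p passed 2-fold at 1.57, 2.32 and 1.87. With the listed reads, miR-10a 5p (-0.56) and miR-10b 5p (-0.63) were within 2-fold. Under the same scalings the names more than 2-fold lower numbered 30, 13 and 20 instead of 72, and those higher 222, 350 and 269 instead of 122. With at least 10 reads in both libraries 40 were lower and 51 higher, fewer names being tested.

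A coefficient of variation of 0.4 was assumed for the value of each library, as if from a single pool. Values over several pools with that spread would have narrower intervals. On the NE scale the intervals of miR-196b 5p (log2 ratio -1.05) and miR-10a 3p then included 0. So did the interval of the log2 odds ratio of the 3p strands (0.93). The intervals of miR-10a 5p and miR-10b 5p did not include 0 on the NE scale. They did when, chosen after seeing the data, this spread was joined with the scalings above, in that order, for miR-10a 5p (-1.31, -0.56 and -1.01) and miR-10b 5p (-1.38, -0.63 and -1.08). For miR-10a 3p the joined interval included 0 with the clean reads (1.57). It left out 0 with the listed reads (2.32) and without the most abundant name (1.87). These ratios were past 2-fold, but their lower limits (0.738 and 0.290) were not. For miR-10b 3p, miR-196b 5p and miR-196b 3p the joined interval included 0 under each of these scalings. Setting the median to 0 and a pseudocount of 1 NE changed no direction or call of a member. Fisher's exact test against the clean reads, joined with the fold of NE, changed no call of a member. For the 3p names it could not, since their NE lay within 2-fold. The test compares shares of the clean reads, on which miR-10b 3p was higher in R (0.64), while its NE ratio was -0.14. With at least 1 or 30 reads per arm, a lower change of arms was found for 2.59% and 0% of hairpins (miR-10a), 7.76% and 7.14% (miR-10b), and 29.3% and 28.6% (miR-196b). The overlap of targets by transcript identifier was not run, because that column is not paired with the miRNAs. No paired analysis was possible because each phase has 1 library.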
